A study of Mus musculus with 16 samples.

Results

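The 32 genes described here carry fatty acids into cells, move them into mitochondria, oxidize them, or are known targets of the peroxisome proliferator-activated receptors (PPARs). They were chosen by gene symbol, and all 32 were found among the 46078 genes of the count table. By where each gene is best known to be expressed, 8 were classed as muscle-enriched, 18 as ubiquitous and 6 as typical of other tissues. The RNA is labelled as that of cultured mouse juxtaglomerular (JG) cells, a kidney cell type that makes renin, engineered to express YFP from the renin promoter. The cells were transfected with a control miRNA precursor that is not mammalian or with miR-106b, and were harvested after 48 h. PolyA RNA was sequenced in 4 control and 4 miR-106b libraries, and RNA immunoprecipitated with Ago2 (Ago2-IP) in another 4 and 4 libraries. Ago2 is the protein that holds miRNAs and their bound mRNAs in the RNA-induced silencing complex (RISC).

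Long-chain fatty acids are freed from lipoproteins by lipoprotein lipase, enter cells with the help of CD36 and fatty acid transport proteins, and are bound by fatty acid-binding proteins and activated to acyl-CoA. The carnitine shuttle then carries them across the mitochondrial membranes, with carnitine palmitoyltransferase 1 as its regulated step, and beta-oxidation shortens them while passing electrons through the electron transfer flavoprotein (ETF) to the respiratory chain. The heart draws most of its energy from this pathway. PPARs, as partners of the retinoid X receptor and with the coactivator PGC-1α, switch on many of its genes in heart, muscle, liver and fat, and PPAR signaling is also among the known regulators of renin transcription.

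The transfected miRNA is shown first because its seed, bases 2 to 8, in capitals, decides which 3′UTRs it can pair with. The mature sequence is from RefSeq (GRCm38.p6, chr5:138165787-138165807, minus strand).

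miR-106b-5p: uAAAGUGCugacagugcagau

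Of the 32 members, 4 held a site for this seed in their longest annotated 3′UTR (GENCODE M21, GRCm38), which is 12.5%, against 22.2% of the 13222 genes tested that have such a 3′UTR. With 7mer-A1 sites left out, 3 of 32 members (9.38%) and 14.8% of the genes held one. The sites are given in their surrounding sequence, on the strand of the gene, with the site in capitals. A 7mer-m8 site matches the whole seed, and an 8mer adds an A opposite the first base of the miRNA. A 7mer-A1 site has that A but lacks the match to the last base of the seed. They lie at chr5:17783072-17783101 in Cd36 (7mer-m8, minus strand), chr8:46535714-46535743 in Acsl1 (7mer-A1, plus strand), chr6:5484928-5484957 in Pdk4 (8mer, minus strand) and chr4:15917709-15917738 in Decr1 (7mer-m8, minus strand).

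Cd36: aataaaatcttGCACTTTtattaaaagtcc
Acsl1: taacagcatttCACTTTActgcaagtcttt
Pdk4: aaggaatcaaaGCACTTTAtcgagcttgtg
Decr1: actataatcttGCACTTTtgagaaccaaat

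Promoters of 250 bases before to 50 bases after the start site were available from RefSeq (GRCm38.p6) for 26 members with 30 start sites. PPARs bind a direct repeat of AGGTCA spaced by 1 base. No member promoter held this element without a mismatch, and 5 of 30 (16.7%) held it on either strand with up to 2 mismatches outside the spacer, against 3.86% of 32851 promoters. The element of estrogen-related receptors, TCAAGGTCA, which overlaps the PPAR half-site, was found on either strand in 0 of 30 member promoters and in 0.423% of all promoters. The inexact matches were in Plin2, Cd36, Ucp3, Etfa and Slc25a20. Such a match is a description of letters, not a binding site. It is shown in capitals, on the strand of the gene, for those of the 5 whose window lies upstream of the start site, at chr4:86670248-86670308 (Plin2), chr5:17835923-17835983 (Cd36), chr7:100472916-100472976 (Ucp3) and chr9:55512284-55512344 (Etfa).

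Plin2: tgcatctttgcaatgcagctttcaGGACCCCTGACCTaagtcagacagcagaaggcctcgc
Cd36: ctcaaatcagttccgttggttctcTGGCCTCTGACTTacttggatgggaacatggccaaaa
Ucp3: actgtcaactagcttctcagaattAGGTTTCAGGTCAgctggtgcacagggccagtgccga
Etfa: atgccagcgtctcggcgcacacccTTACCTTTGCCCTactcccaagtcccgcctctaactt

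Libraries held 2579086 to 9459585 gene counts, and 14897 genes passed the filter of 1 CPM (counts per 1000000 counts of a library) in 3 of the 4 libraries of a group. All 32 members passed it in every group. The markers of the labelled cell type were partly absent. Ren1 had 0 counts in all 16 libraries, where 3 counts, the limit that a count of 0 allows, correspond to 0.317 to 1.16 CPM, and Akr1b7 stayed at a group mean of at most 0.144 CPM. A list of 15 cardiac muscle markers summed to 22253 to 31584 CPM in polyA control, to 43449 to 75074 CPM after miR-106b and to 97656 to 107299 in Ago2-IP libraries. All 14 of these markers that passed the filter rose in polyA miR-106b libraries. The 8 endothelial and the 7 blood and macrophage markers also rose, all 15 of them, whereas of 9 skeletal muscle and 8 adipocyte markers analysed here 2 and 1 passed the filter and none was called. Of 10 juxtaglomerular and mural cell markers 8 passed the filter, and the list summed to 2461 to 2682 CPM in polyA control and to at most 5219 CPM in any library. Of these 8 markers 4 were higher and 1 lower (Tagln), and both kidney tubule markers tested (Lrp2 and Cubn) were lower. The summed level was at most 10.5 CPM for skeletal muscle and 3.88 CPM for adipocyte markers in any library. In these bulk RNA values, a change in the share of cells of a type and a change in RNA per cell cannot be told apart.

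In polyA RNA, 30 of the 32 members were higher after miR-106b transfection, 1 was lower (Plin2) and 1 did not pass the test (Cpt1a). By the same test, 40.5% of all 14897 genes were called, 19.0% higher and 21.5% lower. The median log2 fold change was 1.02 over the members and -0.05 over all genes tested. Fitting the polyA groups together with the Ago2-IP libraries changed the share of higher calls among all called genes from 47.0% to 61.4%, and left 30 members higher and 1 lower. The number of all genes called lower fell from 3197 to 1843 without polyA control replicate 1 and to 1713 without replicate 3, where 29 and 30 members were higher. Each group held 4 libraries, and fold changes are given as log2 with their SE and with p-values of edgeR's quasi-likelihood test, adjusted by Benjamini-Hochberg over all genes tested. The polyA miR-106b libraries did not overlap the polyA control libraries in 28 members, 27 of which were higher and 1 lower. Groups without overlap were found for 16.5% of all genes in the higher and 22.0% in the lower direction.

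**Figure D1:**
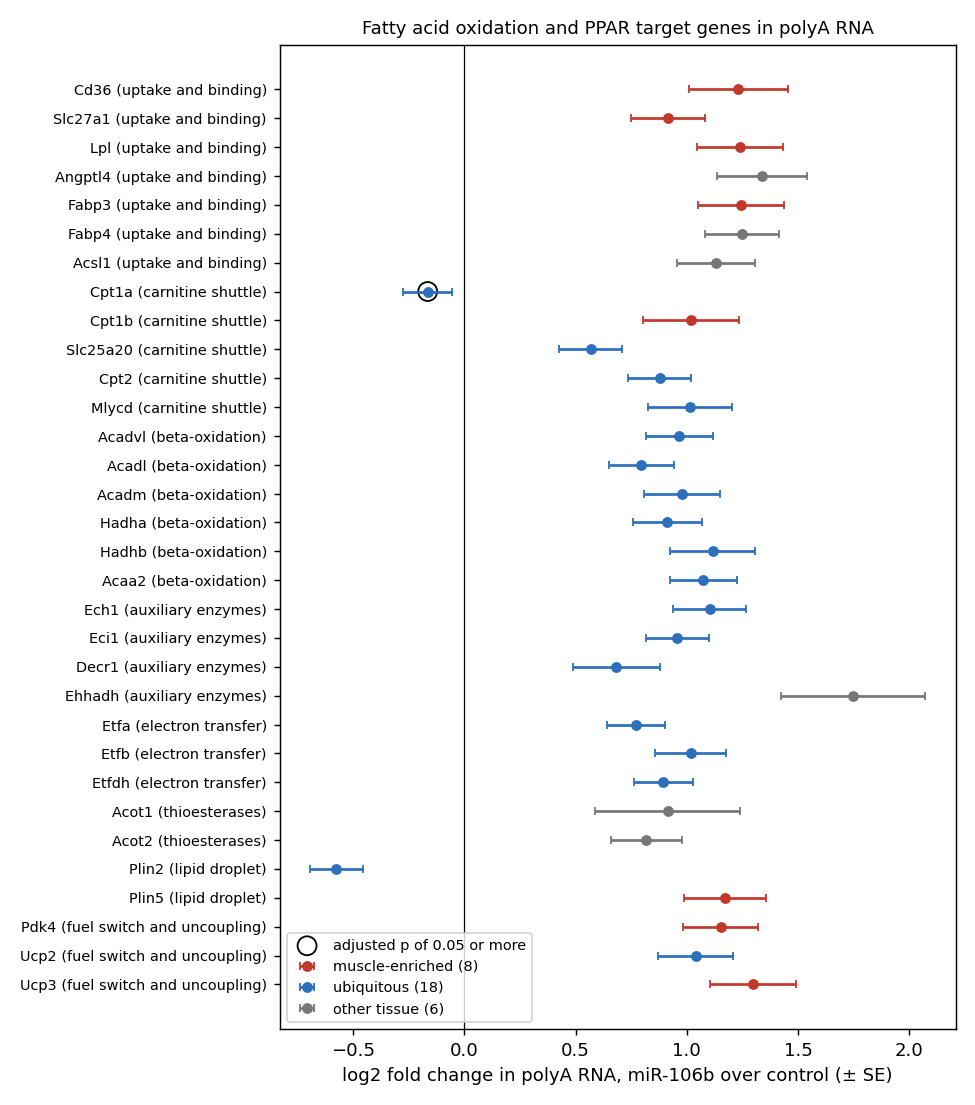
Log2 fold change of each member in polyA RNA, 4 miR-106b against 4 control libraries, with its SE (x axis) and with members ordered by role (y axis); red marks muscle-enriched, blue ubiquitous and grey other members. Of the 32 points 30 lie to the right of 0, Plin2 lies to the left at -0.58, and the circled Cpt1a, at -0.16, was not called.

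Genes of fatty acid uptake and binding were all higher, 7 of 7, with a median log2 fold change of 1.24. Lpl, which encodes lipoprotein lipase (chr8:68880491-68907448), frees fatty acids from lipoproteins at the vessel wall. Its level was 730, 586, 622 and 817 CPM in the 4 polyA control libraries and 1110, 2011, 1410 and 1853 CPM in the polyA miR-106b libraries. The groups did not overlap, and the rise was 1.24 ± 0.19 (SE) with an adjusted p of 0.000676 in edgeR. Fabp3 (chr4:130308595-130315463), the heart-type fatty acid-binding protein, stood at 404, 316, 344 and 460 CPM in control and at 610, 1094, 800 and 1034 CPM in miR-106b libraries, a log2 fold change of 1.24 ± 0.19 (edgeR adjusted p = 0.000676). For both genes replicate 1 was the lowest and replicate 2 the highest of the miR-106b libraries.

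Cd36 (chr5:17781690-17888801), the fatty acid translocase, was at 39.7, 26.7, 29.6 and 40.8 CPM in polyA control and at 53.1, 103, 63.2 and 94.8 CPM in polyA miR-106b libraries. Its log2 fold change was 1.23 ± 0.22 (edgeR adjusted p = 0.00125), an increase, although Cd36 is one of the members with a seed site shown above. Slc27a1, a fatty acid transport protein, was at 101, 85.3, 84.9 and 116 CPM and at 139, 209, 156 and 213 CPM in the same groups. It had the smallest change of the uptake genes, 0.92 ± 0.17 (edgeR adjusted p = 0.00116). Angptl4, a secreted inhibitor of lipoprotein lipase, had the lowest level per length of the uptake genes, 2.14 CPM per kilobase of exon in polyA control. It was at 8.57, 5.60, 7.43 and 8.78 CPM in control and 16.7, 20.7, 15.5 and 22.0 CPM in miR-106b libraries. It changed by 1.34 ± 0.20 (edgeR adjusted p = 0.000676).

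Fabp4, the fatty acid-binding protein of fat cells, macrophages and capillary endothelium, was at 63.6, 51.4, 58.7 and 74.0 CPM in polyA control and at 105, 171, 138 and 163 CPM in polyA miR-106b libraries. Its groups were separate, with a log2 fold change of 1.25 ± 0.16 (edgeR adjusted p = 0.000676), while the 8 adipocyte markers together summed to 0.952 to 2.63 CPM in polyA control and to 0 to 2.58 CPM in polyA miR-106b libraries. The part of fat, endothelial or blood cell transcripts in the change of Fabp4 was not tested. Acsl1, which activates long-chain fatty acids to acyl-CoA, rose from 163 ± 25.8 to 351 ± 82.5 CPM (mean ± SD, n = 4 each).

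Of the 5 members of the carnitine shuttle 4 were higher and Cpt1a was not called. Cpt1b (chr15:89416405-89425863), the muscle isoform of carnitine palmitoyltransferase 1, was at 9.52, 9.09, 8.94 and 12.999 CPM in polyA control and at 14.1, 24.9, 17.8 and 24.2 CPM in polyA miR-106b libraries. The rise was 1.02 ± 0.22 (edgeR adjusted p = 0.00274), and the lowest miR-106b library was only just above the highest control library. Cpt1a, the isoform of liver and most other tissues, was at 103, 111, 114 and 109 CPM in control and at 110, 94.0, 97.3 and 81.3 CPM in miR-106b libraries. These groups overlapped, and the log2 fold change of -0.16 ± 0.11 did not pass the test (edgeR adjusted p = 0.249).

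Cpt1a and Cpt1b encode the same enzymatic step, so that their levels were also compared per kilobase of exon. Per length, Cpt1b made up 17.3, 15.7, 15.1 and 21.2% of the sum of both in polyA control and 22.5, 37.6, 29.3 and 40.2% in polyA miR-106b libraries. In Ago2-IP RNA the share was 54.3 ± 3.02% in control and 54.1 ± 2.41% in miR-106b libraries (mean ± SD, n = 4 each). By this measure the muscle isoform was the minor one in all 8 polyA libraries and above 50% in all 8 Ago2-IP libraries, at the lowest 50.3%. This depends on the length used, the union of annotated exons, 7642 bases for Cpt1a and 3372 for Cpt1b. In CPM Cpt1a stayed above Cpt1b, at means of 79.0 against 41.6 in Ago2-IP control and 73.6 against 38.5 in Ago2-IP miR-106b libraries. Which isoform was the more abundant in Ago2-IP RNA is therefore not settled.

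Mlycd encodes malonyl-CoA decarboxylase, which removes the inhibitor of carnitine palmitoyltransferase 1. It was at 65.5, 56.6, 54.1 and 65.2 CPM in polyA control and at 89.6, 144, 90.2 and 155 CPM in polyA miR-106b libraries, a change of 1.01 ± 0.19 (edgeR adjusted p = 0.00133). Cpt2, the inner-membrane enzyme of the shuttle, rose from 70.6 ± 7.68 to 127 ± 21.8 CPM. Slc25a20, the carnitine-acylcarnitine carrier, had the smallest rise of the members that were higher, from 59.1 ± 7.33 to 86.0 ± 13.9 CPM, a log2 fold change of 0.57 ± 0.14 (edgeR adjusted p = 0.00691), with overlapping groups.

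**Figure D2:**
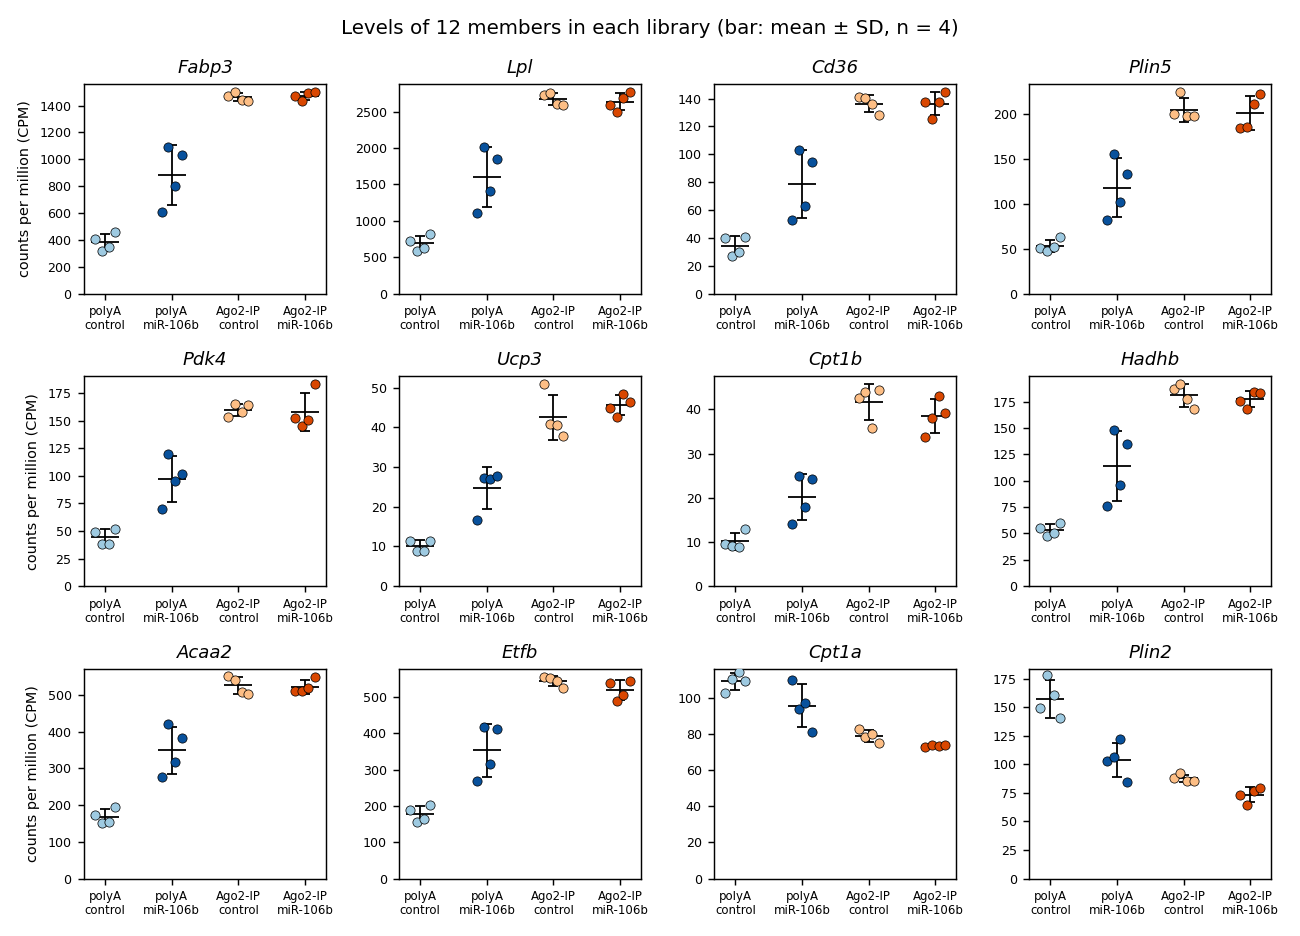
Levels of 12 members in each of the 16 libraries, in CPM on linear axes from 0, with points for libraries and bars for the mean and SD of the 4 libraries of a group. For 10 of the genes, from Fabp3 to Etfb, polyA control is lowest, polyA miR-106b lies between and both Ago2-IP groups are highest, whereas Cpt1a and Plin2 run the other way.

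The enzymes of the beta-oxidation spiral were all higher, 6 of 6, with log2 fold changes between 0.80 (Acadl) and 1.12 (Hadhb). Hadhb encodes the beta subunit of the mitochondrial trifunctional protein and was at 55.2, 47.9, 50.6 and 60.1 CPM in polyA control and at 76.4, 148, 95.9 and 134 CPM in polyA miR-106b libraries. Its log2 fold change was 1.12 ± 0.19 (edgeR adjusted p = 0.000895). Hadha, the alpha subunit, is transcribed from the neighbouring locus and rose from 415 ± 40.1 to 766 ± 149 CPM, a log2 fold change of 0.91 ± 0.15 (edgeR adjusted p = 0.000863). Acaa2, the thiolase of the last step, was at 174, 152, 155 and 195 CPM and at 277, 419, 318 and 381 CPM in the same groups, a change of 1.07 ± 0.15 (edgeR adjusted p = 0.000676). Of the acyl-CoA dehydrogenases for very long, long and medium chains, Acadvl rose from 173 ± 19.3 to 332 ± 65.1, Acadl from 136 ± 11.6 to 232 ± 44.0 and Acadm from 147 ± 21.9 to 284 ± 63.4 CPM.

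The auxiliary enzymes, which prepare unsaturated fatty acids for the spiral or act in peroxisomes, were higher in 4 of 4 cases. Ech1, an isomerase, was at 281, 233, 238 and 310 CPM in polyA control and at 419, 684, 512 and 624 CPM in polyA miR-106b libraries, and Eci1, another isomerase, at 71.4, 63.1, 61.2 and 73.2 CPM and at 100, 141, 120 and 152 CPM. Their log2 fold changes were 1.10 ± 0.17 and 0.96 ± 0.14 (both edgeR adjusted p = 0.000676). Decr1, the mitochondrial dienoyl-CoA reductase and a member with a seed site, changed by 0.68 ± 0.20 (edgeR adjusted p = 0.0141) from 30.2 ± 6.14 to 47.8 ± 11.7 CPM, with overlapping groups. Its adjusted p was 0.054 without polyA control replicate 2.

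Ehhadh, the peroxisomal bifunctional enzyme and a classical PPARα target of liver, had the largest log2 fold change of the members, 1.75 ± 0.32 (edgeR adjusted p = 0.00129). It was also the least abundant per length in polyA control, with 1.64 ± 0.505 CPM there and 5.36 ± 1.11 CPM in polyA miR-106b libraries.

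The subunits of ETF and its dehydrogenase, which hand electrons to ubiquinone, were higher in 3 of 3 cases. Etfb was at 189, 155, 164 and 203 CPM in polyA control and at 267, 417, 316 and 410 CPM in polyA miR-106b libraries, a change of 1.02 ± 0.16 (edgeR adjusted p = 0.000683). Etfdh was at 83.3, 77.1, 81.1 and 89.8 CPM and at 124, 171, 137 and 173 CPM, a change of 0.89 ± 0.13 (edgeR adjusted p = 0.000676). Etfa rose from 65.8 ± 6.20 to 110 ± 15.3 CPM.

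Acyl-CoA thioesterases release free fatty acids from acyl-CoA, and both members were higher. Acot2, the mitochondrial form, was at 32.5, 23.3, 30.8 and 34.4 CPM in polyA control and at 49.6, 57.2, 42.5 and 59.3 CPM in polyA miR-106b libraries, a change of 0.82 ± 0.16 (edgeR adjusted p = 0.00174). Acot1, the cytosolic form, went from 2.69 ± 0.480 to 5.05 ± 1.92 CPM, a log2 fold change of 0.91 ± 0.33 (edgeR adjusted p = 0.0399). This call was lost without polyA control replicate 1 (adjusted p = 0.0713) or 2 (0.108), without polyA miR-106b replicate 2 (0.132) or 4 (0.122), and with a replicate block (0.0545). Acot1 and Acot2 are near-identical neighbours on chromosome 12, so that the division of reads between them is uncertain.

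Of the lipid droplet coats 1 was lower and 1 higher. Plin2 (chr4:86648386-86670060), the coat protein found in most cells, was at 149, 178, 161 and 141 CPM in polyA control and at 103, 106.05, 122 and 84.9 CPM in polyA miR-106b libraries. All miR-106b libraries lay below all control libraries, and Plin2 fell by 0.58 ± 0.12 on the log2 scale (log2 fold change -0.58, edgeR adjusted p = 0.00224). Plin5, the coat protein of oxidative tissues such as heart, was at 51.4, 47.4, 52.4 and 62.9 CPM and at 81.7, 156, 103 and 133 CPM, a rise of 1.17 ± 0.18 (edgeR adjusted p = 0.000685). In CPM, Plin5 was below Plin2 in polyA miR-106b replicates 1 and 3 and above it in replicates 2 and 4. Per exon length, Plin5 made up 36.5 ± 4.97% of the sum of both in polyA control and 64.9 ± 8.10% in polyA miR-106b libraries. These shares depend on the exon union used as length, 3512 bases for Plin2 and 2087 for Plin5. In Ago2-IP RNA the share of Plin5 was 79.7 ± 0.510% in control and 82.2 ± 0.883% in miR-106b cells.

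**Figure D3:**
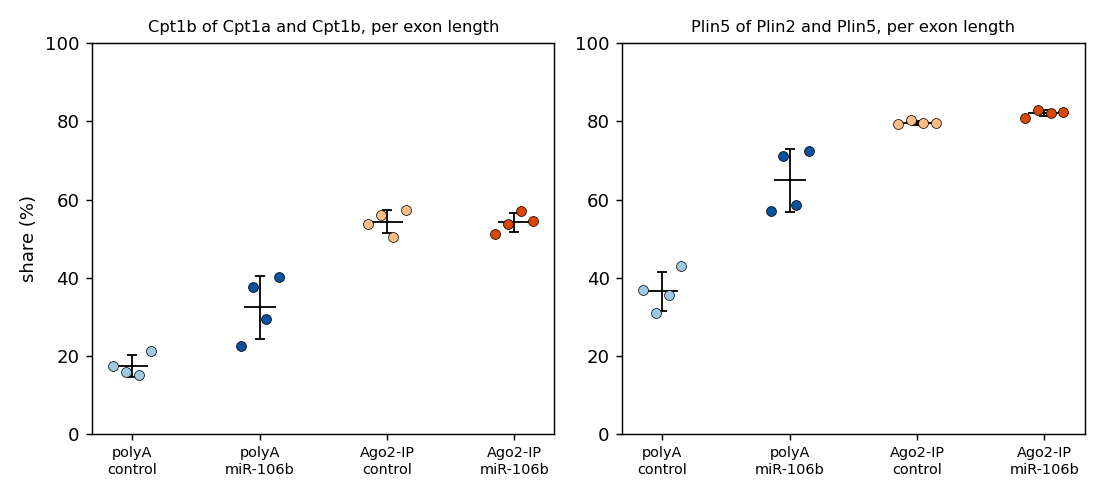
Share, in percent and per exon length, of Cpt1b in the sum of Cpt1a and Cpt1b (left) and of Plin5 in the sum of Plin2 and Plin5 (right), with a point for each library and the mean and SD of 4 libraries for each group. Both shares are lowest in polyA control, at means of 17.3% and 36.5%, and highest in Ago2-IP libraries.

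The genes of fuel choice and uncoupling were higher in 3 of 3 cases. Pdk4 encodes the kinase that shuts off pyruvate dehydrogenase and so favours fatty acids over glucose. It was at 49.0, 38.0, 38.0 and 52.0 CPM in polyA control and at 69.6, 120, 95.3 and 102 CPM in polyA miR-106b libraries, and rose by 1.15 ± 0.17 (edgeR adjusted p = 0.000676) with an 8mer seed site in its 3′UTR. Ucp3, the mitochondrial uncoupling protein of muscle, was at 11.4, 8.88, 8.94 and 11.4 CPM and at 16.7, 27.3, 27.0 and 27.7 CPM in the same groups. Its log2 fold change was 1.30 ± 0.19 (edgeR adjusted p = 0.000676). Ucp2, which lies next to Ucp3 and is found in many tissues, rose from 62.9 ± 5.98 to 127 ± 30.5 CPM.

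Compared by class, all 8 muscle-enriched members were higher in polyA miR-106b libraries, with a median log2 fold change of 1.20 and a range from 0.92 to 1.30. Of the 18 ubiquitous members 16 were higher, with a median of 0.93 over all 18 and a range from -0.58 to 1.12. All 6 members typical of other tissues were higher, with a median of 1.19. The median of the muscle-enriched members was above that of the ubiquitous members in each of the 16 other settings, but the ranges of the classes overlapped, and the difference of the medians, which come from the same libraries, was not tested. Both members that did not rise, Cpt1a and Plin2, were ubiquitous ones, and each has a muscle-enriched counterpart that rose. For Cpt1a the exact two-sided permutation test gave p = 0.0857 over 70 relabellings of the 8 polyA libraries, and for Plin2 it gave 0.0286, the smallest p that 4 against 4 libraries allow.

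In Ago2-IP RNA, no member was called between miR-106b and control libraries by edgeR's quasi-likelihood test, and 0% of all genes were called. With DESeq2 and with edgeR's likelihood ratio test the number of members called was also 0, and of all genes 2 and 18 were called. At an unadjusted p under 0.05 there were 2 members, Plin2 and Ucp2, against 5.57% of all genes. Member changes ran from -0.26 (Plin2) to 0.26 (Acot1), with a median of -0.02. Lpl, for example, was at 2733, 2752, 2607 and 2588 CPM in Ago2-IP control and at 2587, 2496, 2693 and 2775 CPM in Ago2-IP miR-106b libraries, a difference smaller than the spread between replicates. The Ago2-IP groups did not overlap in 2 members, Cpt1a and Plin2, against 3.24% of all genes, and both were lower in miR-106b libraries. Cpt1a was at 82.8, 78.2, 79.8 and 75.2 CPM in control and at 72.9, 73.9, 73.5 and 74.2 CPM in miR-106b libraries (edgeR adjusted p = 0.922). Plin2 was at 88.2, 92.2, 85.5 and 85.3 CPM and at 73.3, 64.1, 76.7 and 79.7 CPM (edgeR adjusted p = 0.626). The 4 members with a seed site differed by little in Ago2-IP RNA, with log2 fold changes of 0.00 for Cd36, 0.01 for Acsl1, -0.02 for Pdk4 and 0.04 for Decr1.

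The ratio of Ago2-IP to polyA RNA compares the level of an mRNA in Ago2-IP and polyA libraries, which also differed in their marker levels. The study took a higher ratio after transfection as the mark of a target. In control cells, 30 of the 32 members were higher in Ago2-IP than in polyA RNA and Plin2 was lower, where 69.7% of all genes were called, 35.1% higher and 34.6% lower. The median log2 ratio was 1.92 over the members and -0.03 over all genes. It was 2.29 over the cardiac, 2.27 over the endothelial and 2.31 over the blood and macrophage markers tested. Over the juxtaglomerular and mural markers it was 1.56, and over the 2 kidney tubule markers -1.95. The part of Ago2 binding in the ratios of the members was not tested. These ratios depend on the scaling: with library size only, the median of all genes moved to -0.35 and the share of higher calls from 50.3% to 37.9%, while 30 members stayed higher. Cpt1a, at -0.15 ± 0.09, was not called (edgeR adjusted p = 0.141), but was called lower in 4 of 25 settings (without the filter, without polyA miR-106b replicate 2, and with either of the other scalings by library size or by TMM per RNA kind), with log2 ratios from -0.47 to -0.12 over the 25. On the scaling over all 16 libraries, muscle-enriched members had a median log2 ratio of 2.27 and ubiquitous members of 1.86.

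In miR-106b cells, 29 members were higher in Ago2-IP than in polyA RNA and 2 were lower, with a median log2 ratio of 0.78, where 46.4% of all genes were called, 21.9% higher and 24.5% lower. With library size only, the all-gene median moved from -0.04 to -0.19 and the share of higher calls from 47.2% to 34.0%, while 29 members stayed higher and 2 lower. Here Plin2 was at -0.35 ± 0.10 (edgeR adjusted p = 0.00829) and Cpt1a at -0.23 ± 0.09 (edgeR adjusted p = 0.0431), a call that for Cpt1a was not made in 16 of 25 settings. Ehhadh, at 0.54 ± 0.35, was not called (edgeR adjusted p = 0.206).

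The Ago2:polyA ratio was lower after miR-106b transfection for 29 of the 32 members and higher for none, by the interaction term of a fit to all 16 libraries. Of all genes 27.3% were called, 19.7% with a lower and 7.57% with a higher ratio. This split depends on the scaling: TMM over all 16 libraries gave 1127 genes with a higher and 2942 with a lower ratio, library size only gave 1991 and 2311, and TMM within each RNA kind 1931 and 2368, while 29 members were lower in each. The median change was -1.22 over the members, -1.34 over the muscle-enriched and -1.08 over the ubiquitous ones, and -0.07 over all genes, a median that turned to 0.10 with library size only and to 0.07 with TMM within each RNA kind. The changes of the 29 members ran from -1.89 ± 0.50 for Ehhadh to -0.62 ± 0.16 for Slc25a20 (edgeR adjusted p = 0.00666 and 0.00518). The ratio of Cpt1a changed by -0.08 ± 0.13, of Plin2 by 0.17 ± 0.14 and of Acot1 by -0.79 ± 0.39 (edgeR adjusted p = 0.68, 0.413 and 0.14), and these did not pass the test. The members with a seed site all had a lower ratio, with changes of -1.38 ± 0.25 for Cd36, -1.26 ± 0.19 for Acsl1, -1.32 ± 0.19 for Pdk4 and -0.79 ± 0.21 for Decr1. Among the marker lists the median change was -1.40 for cardiac, -1.43 for endothelial and -1.44 for blood and macrophage markers. It was -1.18 for juxtaglomerular and mural and 1.19 for kidney tubule markers. The polyA comparison, the ratios and their change share libraries, so that they are not independent of each other.

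**Figure D4:**
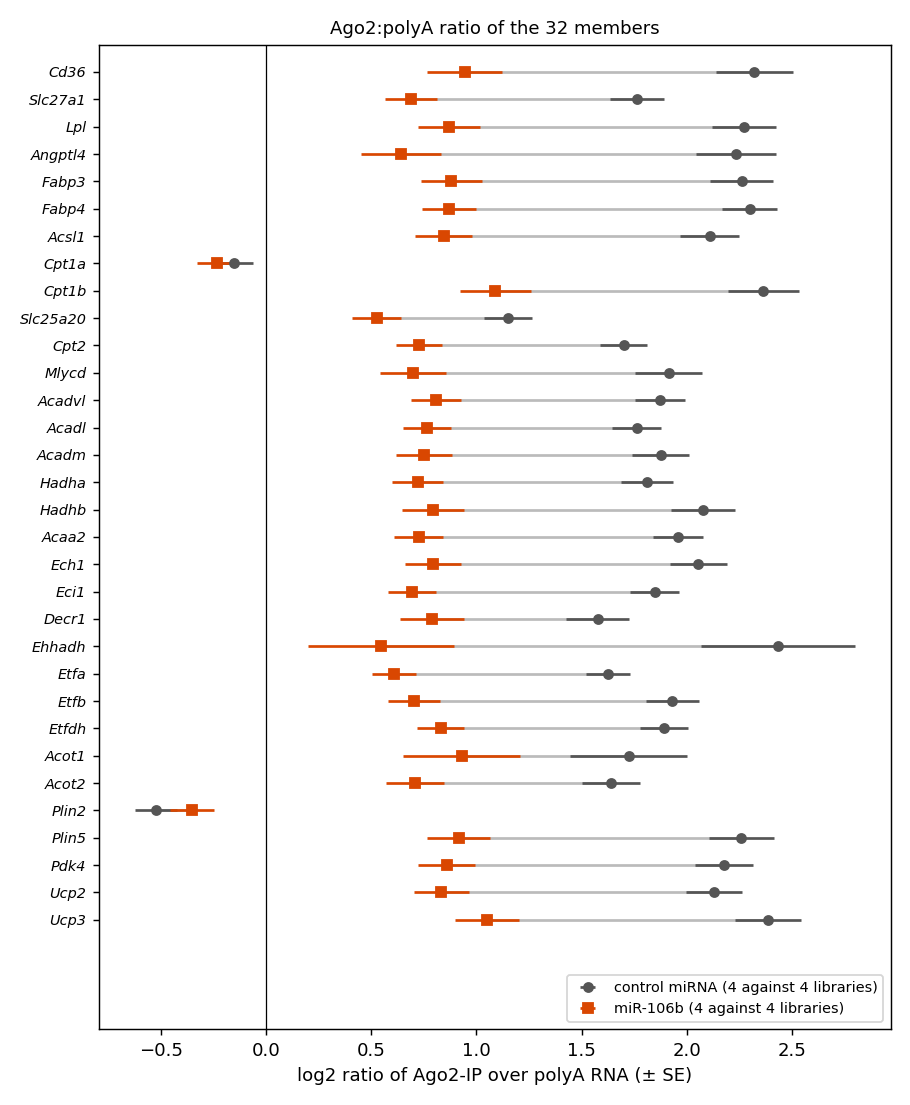
Log2 ratio of Ago2-IP over polyA RNA with its SE (x axis) for each member (y axis) in control (grey circles) and miR-106b cells (orange squares), 4 against 4 libraries each. For 30 members the orange square lies to the left of the grey circle, with changes of -0.62 or lower, while for Cpt1a and Plin2 the symbols lie close together and below 0.

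When scaled to the summed cardiac markers of the same library, 16 of the 32 members varied less than 1.5-fold over the 16 libraries, as did 523 of the 14897 genes tested (3.51%). Lpl, relative to 1000 CPM of the 15 cardiac markers, was at 25.9 ± 0.305 CPM in control and 25.9 ± 0.605 in miR-106b libraries of polyA RNA. In Ago2-IP RNA the values were 25.5 ± 0.362 and 25.7 ± 0.130. Its highest and lowest libraries differed 1.07-fold by this measure and 4.73-fold in CPM. Fabp3 likewise varied 1.07-fold per cardiac marker and 4.75-fold in CPM. Of the muscle-enriched members 7 of 8 varied less than 1.5-fold per cardiac marker, with a median of 1.24-fold, and of the ubiquitous members 7 of 18, with a median of 1.64-fold. Slc27a1 was the muscle-enriched exception, with 1.67-fold.

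Relative to the cardiac markers, all 18 ubiquitous and 3 of 8 muscle-enriched members had their highest group mean in polyA control. So did 90.5% of all genes tested, since the summed markers were lowest there, and the count of ubiquitous members is not read as a result about them. Hadha, for example, was at 15.7 ± 1.01 CPM per 1000 CPM of cardiac markers in polyA control, 12.6 ± 0.859 in polyA miR-106b and 11.1 in both Ago2-IP groups. Cpt1a varied 7.19-fold and Plin2 12.2-fold by this measure. Endothelial and blood markers moved with the cardiac ones. The median summed level in polyA control, polyA miR-106b and both Ago2-IP groups was 347, 839, 1357 and 1353 CPM for endothelial markers. For blood and macrophage markers it was 167, 383, 628 and 626 CPM, and near-constant ratios are therefore not shown to be particular to the cardiac list. These ratios describe values that share a library and its depth, and the part of cardiac, endothelial or blood cell transcripts in the changes of the members was not tested.

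**Figure D5:**
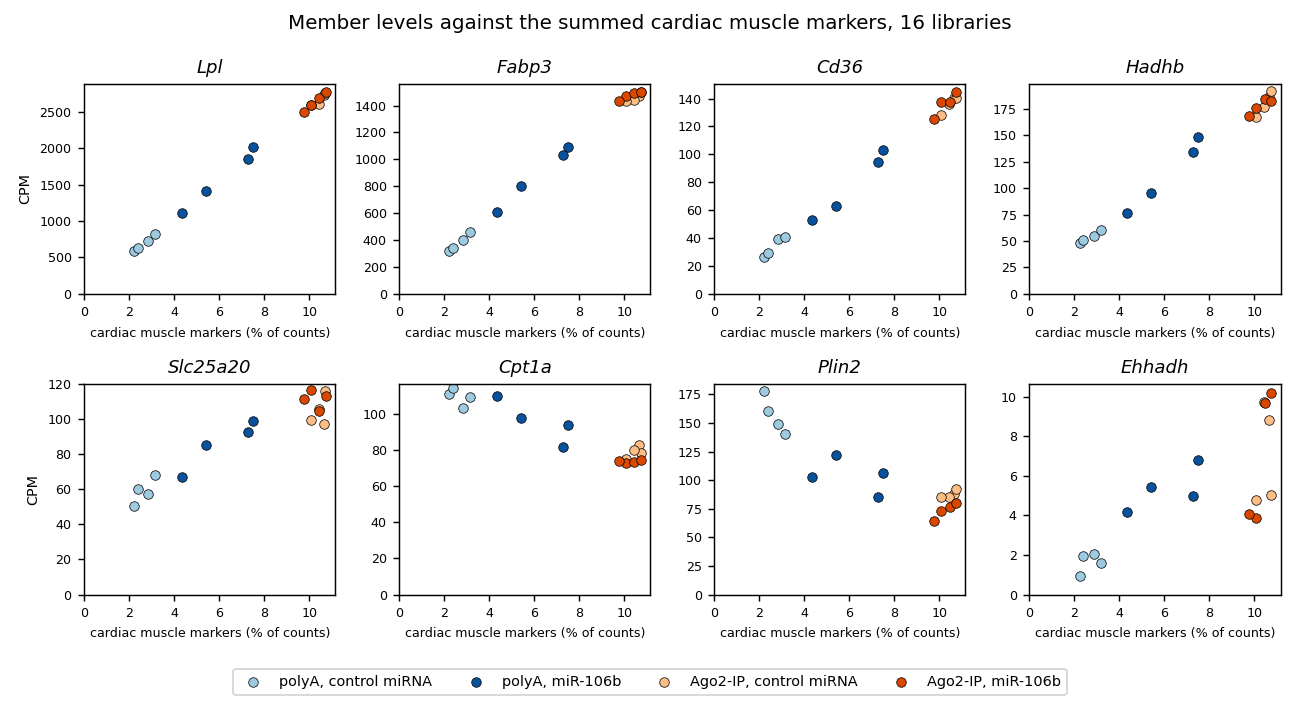
Level of 8 members in CPM (y axis) against the summed level of 15 cardiac muscle markers as percent of all counts (x axis), with a point for each of the 16 libraries, coloured by group, and linear axes from 0. Lpl, Fabp3, Cd36 and Hadhb rise along a nearly straight band from polyA control to Ago2-IP, Slc25a20 starts from a higher level, and Cpt1a and Plin2 fall.

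Per kilobase of exon, Fabp3 was the most abundant member in all 4 groups, with a mean of 463 CPM per kilobase in polyA control and 1075 in polyA miR-106b. Etfb (153 in polyA control), Ech1 (116) and Acaa2 (111) followed in the same order in each group. The order depends on the length used, the union of annotated exons, which was 1164 bases for Etfb and 10478 for Lpl. This union need not be the length of the mRNA present. Plin2 ranked 9 of 32 in polyA control and 18 in polyA miR-106b, and 24 and 25 in the Ago2-IP groups. Cpt1a ranked 18, 26, 29 and 29 in the same order of groups. The other members moved by at most 5 ranks, and Ehhadh and Acot1 held the last places.

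Of 34 other genes of fatty acid oxidation that passed the filter, out of 35 listed, 18 were higher and 3 lower in polyA miR-106b libraries, with a median log2 fold change of 0.40. Of all genes 19.0% were higher and 21.5% lower, with a median of -0.05. Acacb, the acetyl-CoA carboxylase isoform of heart and muscle, rose from 242 to 543 CPM (1.20 ± 0.18, edgeR adjusted p = 0.000676), and Acsl6 from 3.31 to 7.07 CPM (1.14 ± 0.28, edgeR adjusted p = 0.00666). The genes that fell were all acyl-CoA synthetases, Acsl3, Acsl4 and Acsl5, of which Acsl3 is named after its values were seen. Acsl5 went from 80.0 to 31.2 CPM (-1.34 ± 0.20, edgeR adjusted p = 0.000676), Acsl4 from 25.2 to 10.96 CPM (-1.17 ± 0.18, edgeR adjusted p = 0.000676) and Acsl3 from 9.85 to 4.61 CPM (-1.03 ± 0.28, edgeR adjusted p = 0.00996). Acsl1, Acsl3, Acsl4, Acsl5 and Acsl6 catalyse the same activation step, so that the direction differed between isoforms.

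Of 13 tested genes of lipid droplets and lipolysis 10 were higher and none lower, with a median of 0.97, beside the same 19.0% higher and 21.5% lower of all genes. Cidea, Dgat2, Fitm1 and Mgll changed most among those with a mean of at least 5 CPM, with log2 fold changes of 1.29 ± 0.23, 1.24 ± 0.17, 1.23 ± 0.18 and 1.18 ± 0.21. Dgat2, which makes triglycerides, rose from 136 to 315 CPM, and Mgll, which cleaves monoglycerides, from 78.4 to 175 CPM.

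Among 14 PPAR receptors, partners and coactivators 9 were higher and 1, the Mediator subunit Med1, was lower, beside 19.0% and 21.5% of all genes. Ppara, the receptor that drives fatty acid oxidation in heart and liver, rose from 12.6 to 30.5 CPM, by 1.30 ± 0.18 (edgeR adjusted p = 0.000676). Ppard, the widely expressed receptor, was at 103 and 117 CPM (0.22 ± 0.11, edgeR adjusted p = 0.13), and Pparg, the receptor of fat cells, at 3.10 and 5.11 CPM (0.76 ± 0.30, edgeR adjusted p = 0.0591), so that neither passed the test. The coactivators Ppargc1a and Ppargc1b rose by 1.21 ± 0.25 and 1.26 ± 0.20, and the estrogen-related receptors Esrrb and Esrrg by 1.46 ± 0.21 and 1.46 ± 0.22.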

How the data were processed

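The authors removed ribosomal reads, aligned 50-base single-end reads, from libraries without strand information, to the GRCm38 transcriptome with Tophat2 (version 2.0.10 in the submitters' processing notes) and counted reads per gene with HTSeq. The deposited values are raw counts for 46078 genes in 16 libraries, with no normalization.

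Genes with at least 1 CPM in at least 3 of 4 libraries of any group (14897) were tested in R 4.3.3 with edgeR 4.0.16 (TMM scaling, quasi-likelihood test, prior count 0.125, Benjamini-Hochberg threshold 0.05). Each RNA kind had its own fit, and ratios used all 16 libraries. CPM are scaled to library size only. A value per kilobase uses the union of exons of GENCODE M21. The tests were also run on counts simulated with the same spread in every library. The spread of replicates differed between the real groups, so no result rests on that run. The study counts 4 biological replicates per group. The sample titles give replicate numbers but do not say whether equal numbers share a culture or a day. Deviations of equally numbered libraries from their group means correlated at -0.39 to 0.22. This does not show that there were no pairs, and the main tests treat libraries as unpaired. Counting error alone is covered by the limit of 3 counts.

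Members and gene lists were chosen with earlier results of these data known. Values in every library are given for muscle-enriched members and, per role, the 2 called members that changed most in polyA RNA (mean there 5 CPM or more). From each list at most 4 genes chosen likewise are named, and Ppara, Ppard, Pparg and Ppargc1a. Outside this rule and after their values were seen, Cpt1a was given in full, and Acsl3, Med1, Tagln, Cubn, Ren1 and Akr1b7 were named. Alternatives were DESeq2 1.42.0, edgeR's likelihood ratio test, other scalings, no filter, a replicate block, another prior count, all libraries in 1 fit and leaving out each library.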

Additional observations from a re-analysis of the deposited data

Results flagged for a closer look

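The effect of miR-106b transfection differed between Ago2-IP and polyA RNA for 29 of the 32 members, by edgeR's test of the interaction, which is the change of the Ago2:polyA ratio given above. By the same test 27.3% of all genes were called, 19.7% with a lower and 7.57% with a higher ratio. The difference of the log2 fold changes, Ago2-IP minus polyA, was negative in all 29. For uptake and binding it was -1.38 for Cd36, -1.07 for Slc27a1, -1.40 for Lpl, -1.59 for Angptl4, -1.38 for Fabp3, -1.43 for Fabp4 and -1.26 for Acsl1. In the carnitine shuttle it was -1.27 for Cpt1b, -0.62 for Slc25a20, -0.97 for Cpt2 and -1.22 for Mlycd. In the beta-oxidation spiral it was -1.07 for Acadvl, -0.997 for Acadl, -1.13 for Acadm, -1.09 for Hadha, -1.29 for Hadhb and -1.23 for Acaa2. Among auxiliary enzymes it was -1.26 for Ech1, -1.16 for Eci1, -0.79 for Decr1 and -1.89 for Ehhadh. For electron transfer it was -1.02 for Etfa, -1.23 for Etfb and -1.06 for Etfdh. For the thioesterases it was -0.93 for Acot2. Among lipid droplet coats it was -1.34 for Plin5. For fuel choice and uncoupling it was -1.32 for Pdk4, -1.30 for Ucp2 and -1.34 for Ucp3.

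In 3 of 128 groups of 4 libraries a single library stood far from the others by Dixon's test. Chance alone marks about 1 in 20 groups. Cpt1b was at 12.999 CPM in polyA control replicate 4, Plin5 at 225 CPM in Ago2-IP control replicate 2 and Ucp3 at 16.7 CPM in polyA miR-106b replicate 1.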

How the results depend on the processing

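The number of members called stayed within 1.5 times the reported number in every comparison and setting, and the medians of both classes moved by less than 1 SD of the replicates. In polyA RNA it was 29 to 31 when any 1 library was left out, in the ratio change 29 to 30, in Ago2-IP against polyA RNA 31 to 32 in control and 30 to 31 in miR-106b cells, and between Ago2-IP groups 0. The median change ran from 1.04 to 1.43 for muscle-enriched and from 0.84 to 1.12 for ubiquitous members. Single calls lost in polyA RNA were Acot1 in 5 settings and Decr1 in 1 (adjusted p = 0.054), and no member changed direction there. With the replicate block 30 members were called in polyA RNA, against 31, and the lost call was that of Acot1 (adjusted p = 0.0545). The replicate block changed 1 other call, the lower Ago2:polyA ratio of Cpt1a in miR-106b cells. Over all genes, the share of higher calls moved from 27.7% to 46.3% for the ratio change and from 47.2% to 34.0% for Ago2-IP against polyA RNA in miR-106b cells with library size only, and with TMM within each RNA kind to 44.9% and 32.8%, and to 38.3% in control cells. Without polyA control replicate 1 or 3 it was 59.8% or 60.1% in polyA RNA. No call was made for all genes between Ago2-IP groups, against 20 without the filter, 18 with the likelihood ratio test, 2 with DESeq2, 1 with the block and up to 39 with a library left out (Ago2-IP miR-106b replicate 4). The cause of these differences was not tested. Depth is a limit for Ehhadh and Acot1, with means under 10 CPM in every group, and for Angptl4 in polyA control (7.60 CPM).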
